A study of Mus musculus with 6 samples.

Results

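Collagens are the triple-helical proteins of the extracellular matrix, and their genes were examined here as a family in mouse kidney. The family was taken as every listed protein-coding gene whose symbol is Col, a type number, the letter a and a chain number. This rule found 42 of the 25805 listed genes, and it used no measured value. RNA sequencing covered 6 kidney libraries, of which 3 are labelled Cxcr2 knockout with ischemia-reperfusion injury (IRI) and 3 are labelled wild type (WT) with IRI. In IRI the blood supply of the kidney is stopped and then restored, which injures the tubules, and it is a standard model of acute kidney injury. Both groups were injured, so every comparison is between 2 injured groups and none is with an uninjured kidney. Cxcr2 is the receptor for chemokines such as Cxcl1 that draws neutrophils into tissue. The strain, sex and age of the mice, the time after injury, the knockout allele and the cells it affects were not given in the sources used here. The labels do not tie libraries to individual mice, and p-values therefore describe variation between these samples that may be technical.

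A collagen molecule is 3 chains wound together, either copies of 1 chain or products of several genes, and so genes such as Col1a1 and Col1a2 build 1 protein. The fibrillar types I, III and V form the fibers of the interstitium and of scars, and fibroblasts and pericytes are their best known source in kidney. Type IV forms the network of every basement membrane, with a separate set of chains in the glomerular filter that podocytes make. Type VI forms beaded filaments around cells, and types XV and XVIII lie at the outer face of basement membranes. Chains are hydroxylated and folded in the endoplasmic reticulum, trimmed outside the cell and then cross-linked by the lysyl oxidase family.

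The libraries held 15518083 to 20356601 recovered reads, and values below are normalized counts, meaning reads divided by 1 scaling factor per library. Markers of kidney were high in every library, with proximal tubule markers summing to 88768 to 207090.0 in the libraries labelled knockout and 77145 to 125125 in the WT libraries. Cxcr2, the targeted gene, was no lower in libraries labelled knockout, where libraries 1 to 3 had 98.02, 36.8 and 56.6 normalized counts, while WT libraries 1 to 3 had 15.9, 88.8 and 56.9 (log2 fold change 0.43 ± 0.64, SE, with a limma adjusted p of 0.841). Each value sums reads along the full length of the gene, and reads outside a deleted stretch would check nothing. The groups are therefore called labelled KO and WT throughout, and every direction is between libraries so labelled. Labelled-KO library 1 stood apart on the first principal component, which held 48.3% of the variance, at 86.0 against -27.3 to -4.16 for the other 5 libraries. It also held 63316 normalized counts over 10 fat cell markers and 13550 over 7 erythrocyte markers, against 749 to 3868 and 761 to 2973 in the other 5 libraries. Of the fat cell markers Adipoq, Cfd, Cidea and Retn were at 0 in some other library. Labelled-KO library 3 lay at the low end of the second component (27.3% of the variance), at -57.3.

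The upstream sequences of the 4 collagen genes that DESeq2 called lower, and the stretch that the genes of 2 glomerular chains share, are shown as the start regions of genes described closely below. They are RefSeq sequences of GRCm38.p6, written 5′ to 3′ on the strand of the gene, with every base outside the exons annotated in GENCODE M21. Capitals mark 3 promoter motifs, each searched on both strands. They are the box named by its letters CCAAT, the box spelled TATAAA that is named for its first letters, and the so-called GC box, which was spelled GGGCGG. The letters of these motifs do not overlap in the sequences shown.
Col1a2 (chr6:4505370-4505492, plus strand): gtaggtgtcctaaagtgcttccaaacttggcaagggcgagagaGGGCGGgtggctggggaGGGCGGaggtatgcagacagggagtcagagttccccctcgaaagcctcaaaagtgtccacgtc
Col3a1 (chr1:45311288-45311537, plus strand): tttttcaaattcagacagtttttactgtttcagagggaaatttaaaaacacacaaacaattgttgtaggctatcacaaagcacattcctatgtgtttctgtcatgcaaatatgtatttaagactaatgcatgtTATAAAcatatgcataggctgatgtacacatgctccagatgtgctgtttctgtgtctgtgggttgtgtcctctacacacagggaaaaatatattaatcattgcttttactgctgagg
Col5a1 (chr2:27886175-27886424, plus strand): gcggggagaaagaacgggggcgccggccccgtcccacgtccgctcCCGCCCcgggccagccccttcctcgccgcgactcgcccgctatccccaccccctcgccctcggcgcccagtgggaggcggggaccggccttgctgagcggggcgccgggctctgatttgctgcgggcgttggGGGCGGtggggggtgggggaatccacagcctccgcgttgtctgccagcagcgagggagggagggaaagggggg
Col6a3 (chr1:90843972-90844221, minus strand): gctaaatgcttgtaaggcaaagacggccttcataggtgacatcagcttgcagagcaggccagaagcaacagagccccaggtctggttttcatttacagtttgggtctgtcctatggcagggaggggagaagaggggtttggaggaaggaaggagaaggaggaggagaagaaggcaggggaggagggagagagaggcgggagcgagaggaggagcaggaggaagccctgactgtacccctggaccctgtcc
Col4a4 to Col4a3 (chr1:82586850-82586920, strand of Col4a4): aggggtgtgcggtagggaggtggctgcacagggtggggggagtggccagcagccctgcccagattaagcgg

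No motif stands in all of the first 4 windows of 250 bases. The stretch of Col1a2 ends where an annotated first exon begins and holds 2 GC boxes, which begin 188 and 205 bases before the RefSeq start. By the listed coordinates Col1a2 begins before this stretch, at chr6:4504814, so the stretch lies inside the gene as listed, between exons. The bases of its 250-base window that lie outside this stretch are not shown, and they hold a CCAAT box. Col3a1 has a TATA box 117 bases before its start in a stretch of 35.2% GC. The 250 bases before Col5a1 are 76.4% GC and hold 2 GC boxes. Col6a3 and the 71 bases between Col4a4 and Col4a3 hold none of the motifs. Promoters were found for 34 of the 42 symbols, as 36 sequences, and the other 8 are Col1a1, Col4a3, Col5a2, Col9a3, Col12a1, Col14a1, Col22a1 and Col26a1. In the 250 bases before the start, a GC box stood in 61.1% of the 36 collagen promoters, against 32.7% of all 32851 mouse promoters and 42.6% of the 21263 of protein-coding genes. A CCAAT box stood in 33.3%, against 33.8% of all promoters, and a TATA box in 13.9%, against 12.4% of all. A match is one of letters only.

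Of the 42 collagen genes, 39 had a mean of at least 1 normalized count and were tested, 30 of them with a mean of at least 10 and 22 with a mean of at least 100. Every member had reads in some library. Col9a2, Col10a1 and Col22a1 were below the limit. All collagen genes together took 0.251%, 0.290% and 0.194% of the reads in labelled-KO libraries 1 to 3, against 0.392%, 0.512% and 0.320% in WT libraries 1 to 3. The highest labelled-KO share was below the lowest WT share. In bulk tissue fewer cells of a type and less RNA per cell cannot be told apart.

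Most collagen genes were lower in the labelled-KO kidneys by the mean of log2(normalized count + 1), here called the log2 mean, and no single gene passed the main test. The log2 fold change was below 0 in 27 of 39 collagen genes, against 50.1% of the 21721 genes tested. The median log2 fold change was -0.57 over the collagen genes and -0.0010 over all genes. By limma with Benjamini-Hochberg adjustment 0 of 39 collagen genes passed an adjusted p of 0.05, where 0.0046% of all tested genes did, and by edgeR 0 of 30 did (0.00628% of all). At an unadjusted limma p below 0.05 were 11 of the 39 collagen genes, against 10.1% of all genes. Of these, 10 were lower, against 6.14% of all genes, and 1 was higher, against 3.94%. The 10 were Col1a1, Col1a2, Col3a1, Col4a2, Col5a1, Col6a1, Col6a3, Col12a1, Col13a1 and Col15a1, and the 1 was Col4a4. The standard error of the log2 fold change had a median of 0.47 over the collagen genes and 0.39 over all genes.

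**Figure D1:**
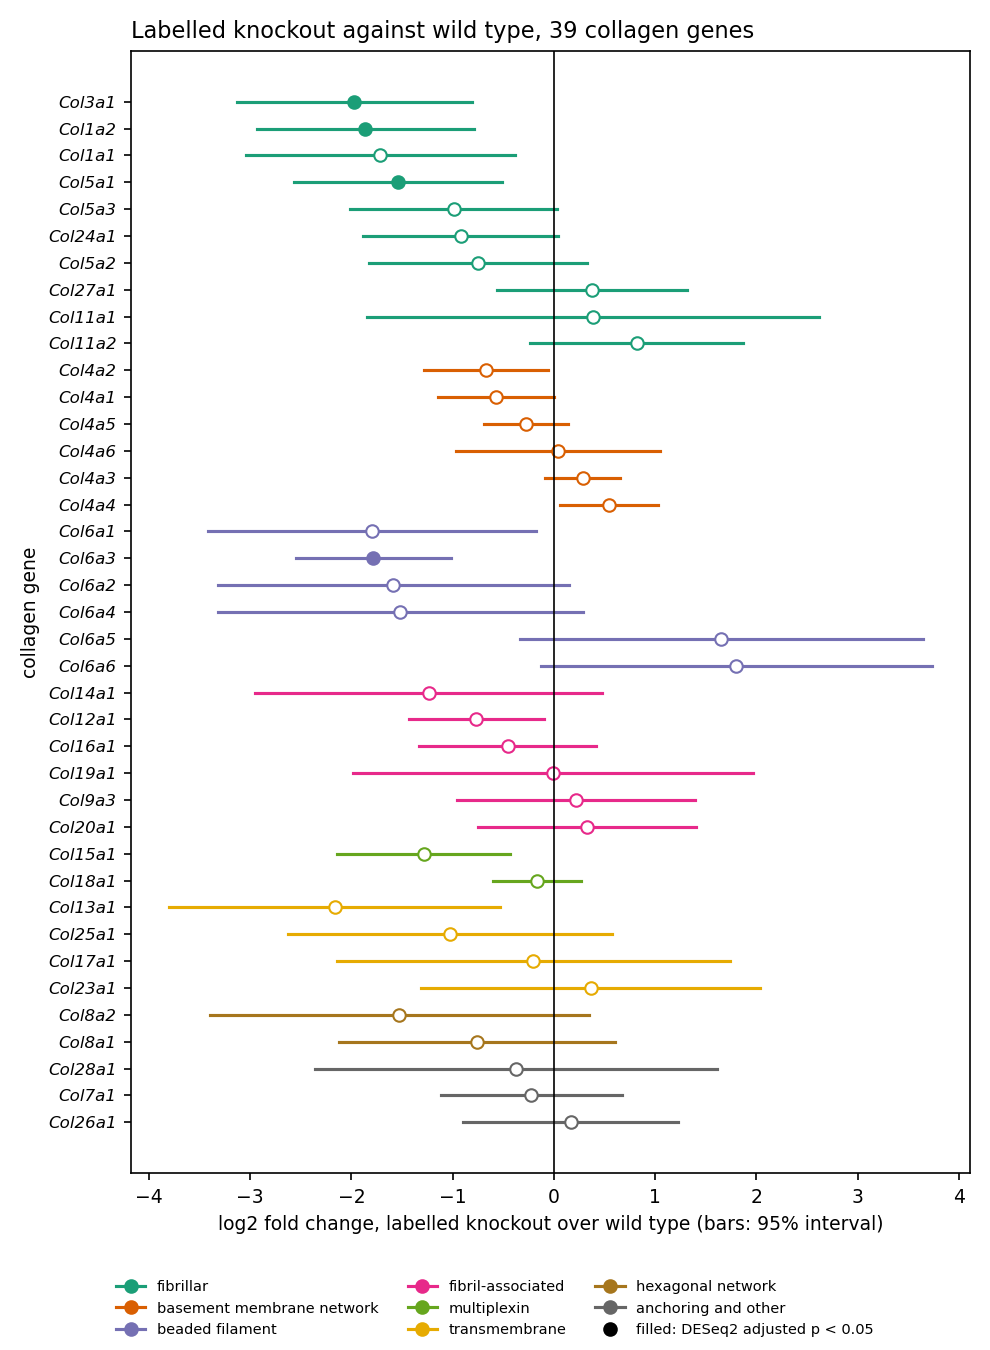
Log2 fold change of labelled knockout over wild type with its 95% interval (horizontal axis) for each of the 39 collagen genes tested, on the scale log2(normalized count + 1). The points run from -2.16 for Col13a1 to 1.80 for Col6a6, with 27 below 0.

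By its Wald test with Benjamini-Hochberg adjustment, DESeq2 called 4 collagen genes lower, namely Col1a2, Col3a1, Col5a1 and Col6a3, out of 30 with an adjusted p. It called 1.3% of all genes lower and 1.95% in either direction. It called 0 collagen genes higher, where it called 0.647% of all genes higher, and the collagen gene with an unadjusted limma p below 0.05 in that direction was Col4a4. These 4 calls depended on single libraries. Without WT library 2 DESeq2 called 0 collagen genes (0.0914% of all genes lower), with 8 at an unadjusted p below 0.05, and without WT library 1 it called Col6a3 alone (0.572% of all lower). Without labelled-KO library 1 it called 7 collagen genes lower (3.02% of all), of which Col6a3 was 1 of the 4 and the others were Col4a2, Col5a2, Col5a3, Col6a1, Col8a1 and Col13a1. Without labelled-KO library 3 it called Col1a2, Col3a1 and Col6a3 (0.775% of all lower). Without labelled-KO library 2 or WT library 3 all 4 calls stood among 6 collagen genes called (1.8% and 1.56% of all genes lower).

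Libraries differed in which collagen genes were low. Labelled-KO library 3 was below the whole WT range for 26 of 39 collagen genes and above it for 3, while over all genes 29.7% were below and 29.7% above. Labelled-KO library 2 was below for 18 and above for 12, against 27.2% of all genes below and 28.8% above. In labelled-KO library 1 the counts were 14 below and 9 above, against 34.1% of all genes below and 35.1% above. The median collagen gene lay at -0.29, -0.34 and -0.98 on the log2 scale relative to the WT mean in labelled-KO libraries 1 to 3. The groups did not overlap, with labelled KO lower, for 7 collagen genes (9.43% of all tested genes), and with labelled KO higher for 1 (8.27% of all).

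**Figure D2:**
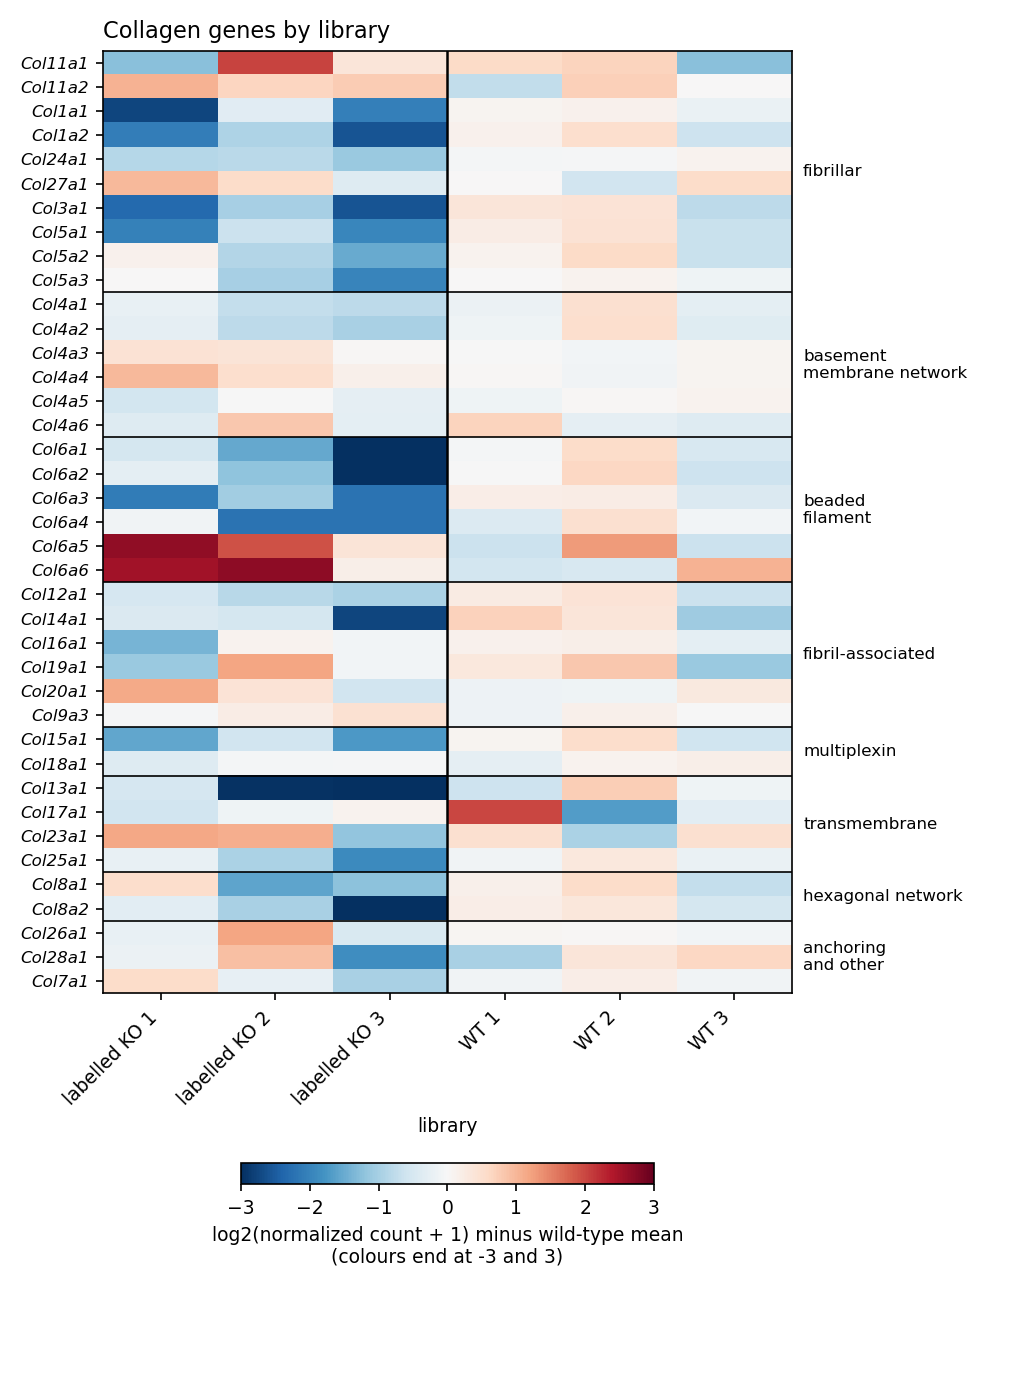
Log2 of each normalized count relative to the WT mean (color) for the tested collagen genes (rows, by structural class) in the 6 libraries (columns, labelled KO left of WT). Labelled-KO library 3 is below the whole WT range for 26 of the 39 genes.

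The type I and type III fibrillar chains had the lowest values in labelled-KO libraries 1 and 3. Col1a2 (chr6:4504814-4541544 in mm10), the alpha 2 chain of type I collagen, had 1285, 2828 and 902 normalized counts in labelled-KO libraries 1 to 3, against 5889, 7647 and 3488 in WT libraries 1 to 3. Every labelled-KO library was below every WT library, and the means were 1672 ± 1019.7 in labelled KO and 5675 ± 2088 in WT (SD, n = 3 each), 3.39-fold lower in labelled KO. The log2 fold change was -1.86 ± 0.46 (SE) with a limma adjusted p of 0.381 and a DESeq2 adjusted p of 0.00903. Col1a1 (chr11:94936224-94953042), the alpha 1 chain that makes up most of the type I trimer, had 673, 3578 and 1099 normalized counts in the labelled-KO libraries and 4795, 4955 and 3939 in the WT libraries. The groups did not overlap, but labelled-KO library 2 lay just under the lowest WT library (limma log2 fold change -1.71 ± 0.56 SE with a limma adjusted p of 0.429). Col3a1 (chr1:45311538-45349706), the only chain of type III collagen, had 1301, 3259.8 and 1085 normalized counts in the labelled-KO libraries, against 8445, 8698 and 3779 in the WT libraries. Its highest labelled-KO value was below its lowest WT value, with means of 1882 ± 1198 in labelled KO and 6974 ± 2769.6 in WT (SD, n = 3 each). The log2 fold change of Col3a1 was -1.97 ± 0.49 (SE) with a limma adjusted p of 0.383 and a DESeq2 adjusted p of 0.00658.

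Type V collagen, which sits inside type I fibrils and helps set their width, differed between its chains Col5a1 and Col5a2 in which libraries were low. Col5a1 (chr2:27886425-28039514) had 306, 813 and 325 normalized counts in the labelled-KO libraries, against 1479, 1708 and 795 in the WT libraries. Labelled-KO library 2 was above WT library 3, so the groups overlapped, with means of 482 ± 287 in labelled KO and 1327 ± 475 in WT (SD, n = 3 each). The log2 fold change of Col5a1 was -1.54 ± 0.44 (SE) with a limma adjusted p of 0.391 and a DESeq2 adjusted p of 0.0422. Col5a2, the partner chain, had 759.6, 379 and 244 normalized counts in the labelled-KO libraries and 746, 1029 and 435 in the WT libraries, with labelled-KO library 1 above WT libraries 1 and 3. Its log2 fold change was -0.75 ± 0.46 (SE) with a limma adjusted p of 0.606. It was -1.19 without labelled-KO library 1, -0.37 without labelled-KO library 3 and -0.46 without WT library 2. Per base of transcript the level of Col5a2 relative to Col5a1 was 3.15, 0.591 and 0.952 in labelled-KO libraries 1 to 3, against 0.641, 0.764 and 0.693 in WT libraries 1 to 3. Labelled-KO library 1 was the one in which these 2 chains parted most. Col5a3, another chain of this type, had 430, 216 and 107 normalized counts in the labelled-KO libraries and 433, 461 and 394 in the WT libraries. Its groups overlapped (log2 fold change -0.99 ± 0.44 SE with a limma adjusted p of 0.506), and it was added after its values were seen.

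**Figure D3:**
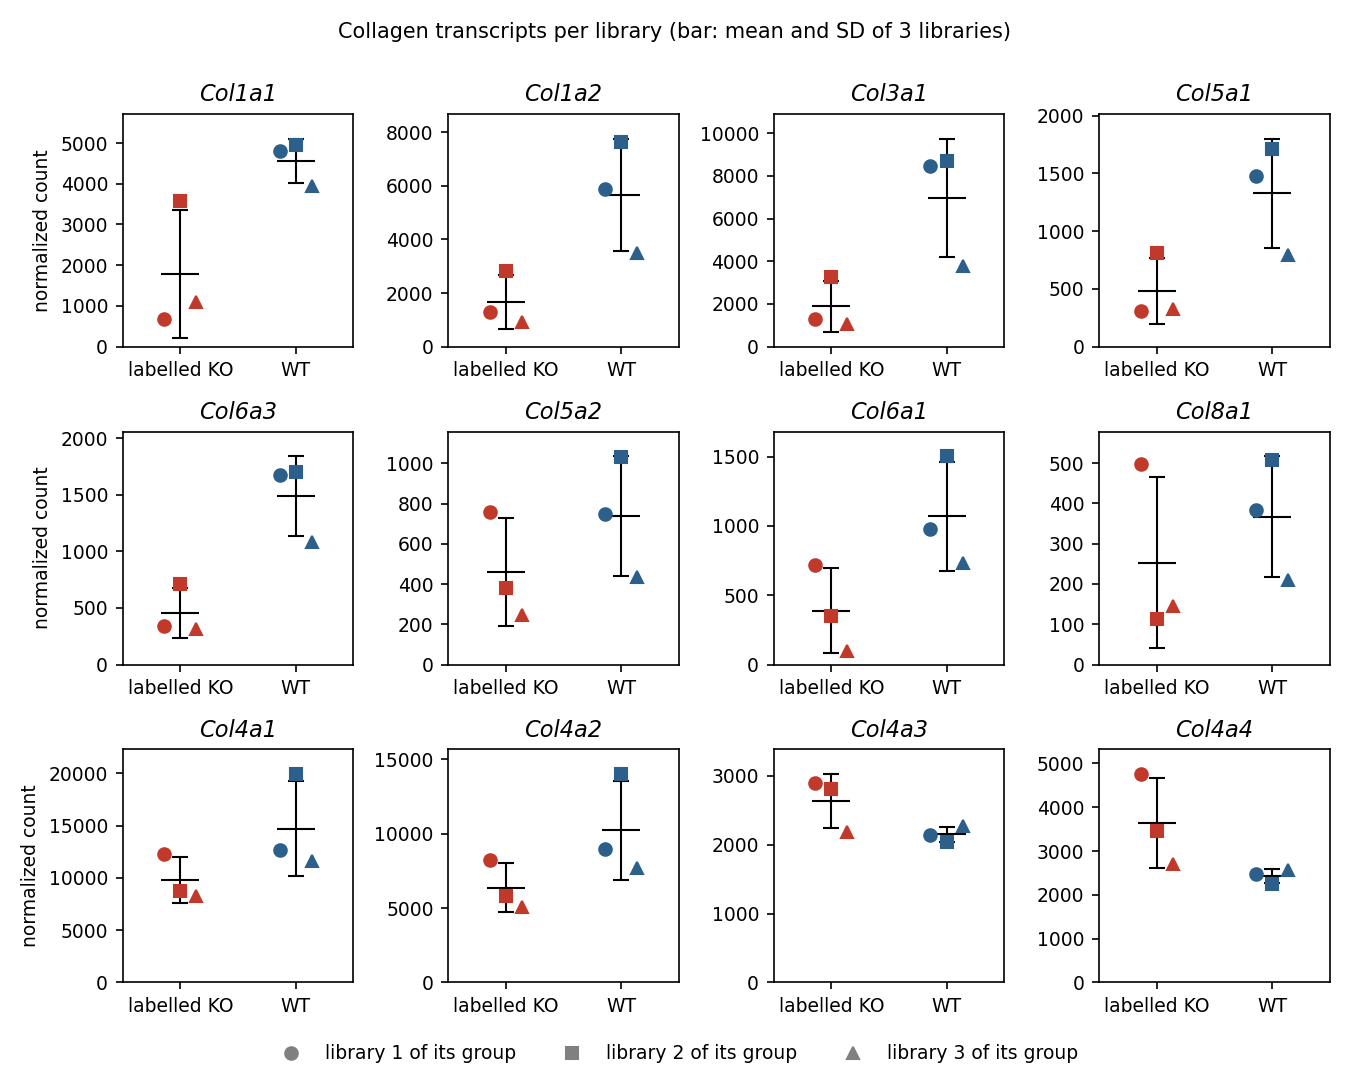
Normalized counts (vertical axes, each from 0) of 12 collagen genes in the 6 libraries, labelled KO left of WT, with the mean and SD of 3 libraries per group. The labelled-KO values of Col1a1, Col1a2, Col3a1, Col6a1 and Col6a3 all lie below the WT values, and Col4a4 is the gene whose labelled-KO values all lie above its WT values.

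Summed over the 10 listed fibrillar genes, labelled-KO libraries 1 to 3 held 8373, 13766 and 5189 normalized counts, against 23645, 25773 and 15537 in WT libraries 1 to 3. The sum was 2.38-fold lower and the groups did not overlap. Of the 10 genes 7 had a lower and 3 a higher log2 mean, with a median log2 fold change of -0.96. Col27a1, a fibrillar chain best known from cartilage, had 3561, 2638 and 1379 normalized counts in the labelled-KO libraries and 1822, 1216 and 2663 in the WT libraries, which overlapped (log2 fold change 0.38 ± 0.40 SE with a limma adjusted p of 0.767). Col24a1, a minor fibrillar chain, was low but regular, with 11.1, 11.6 and 9.26 normalized counts in the labelled-KO libraries, against 20.1, 20.4 and 22.8 in the WT libraries. Its groups did not overlap, and its log2 fold change was -0.92 ± 0.42 (SE) with a limma adjusted p of 0.51. These 2 genes were singled out after their values were seen.

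Markers of fibroblasts and pericytes were also mostly lower. Their sum over 16 genes was 6609, 5380.1 and 2645 normalized counts in labelled-KO libraries 1 to 3, against 10779, 16849 and 7032 in WT libraries 1 to 3, and 15 of the 16 had a lower log2 mean (median log2 fold change -1.08). Among them Acta2, the actin of contractile pericytes and myofibroblasts, had 505, 1552 and 694 normalized counts in the labelled-KO libraries and 3919, 8605 and 2518 in the WT libraries. Acta2 was the largest single part of the sum in each WT library, so the gap between the sums rests largely on this gene. Lum, a small proteoglycan bound to fibrils, had 90.2, 39.7 and 0 normalized counts in the labelled-KO libraries and 72.7, 21.3 and 6.83 in the WT libraries. Its log2 mean was lower in labelled KO, but its plain mean was higher (43.3 against 33.6). Dcn, its relative, had 1869, 244 and 50.4 normalized counts in the labelled-KO libraries and 544, 486 and 164 in the WT libraries, so it did not follow the collagens in labelled-KO library 1. Plain means were also higher in labelled KO for the fibroblast and pericyte markers Dcn (721 against 398), Fbln1 (168 against 155) and Cspg4 (610 against 573). The part of these cells in the collagen values was not tested. Fat cell and erythrocyte markers were high in labelled-KO library 1, as given above, and neutrophil markers, of which Camp, Ly6g, Mmp8 and Ngp were at 0 in some library, summed to 4358, 391 and 916 in the labelled-KO libraries, against 359, 1205 and 1002 in the WT libraries. Their part in the collagen values was not tested, and without labelled-KO library 1 the limma log2 fold changes of Col1a2, Col3a1 and Col6a3 were -1.76, -1.79 and -1.63. Those of Col1a1, Col5a2, Col8a1 and Col16a1 were -1.19, -1.19, -1.41 and 0.012 without it, against -1.71, -0.75, -0.76 and -0.46 with it.

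Type VI collagen is built from the alpha 1, alpha 2 and alpha 3 chains in equal parts. Col6a3 (chr1:90765923-90843971), the large chain, had 341, 709.7 and 311 normalized counts in labelled-KO libraries 1 to 3, against 1676, 1701 and 1079.6 in WT libraries 1 to 3. The groups did not overlap, with means of 454 ± 222 in labelled KO and 1485 ± 352 in WT (SD, n = 3 each), 3.27-fold lower in labelled KO. Its log2 fold change was -1.78 ± 0.33 (SE) with a limma adjusted p of 0.368 and a DESeq2 adjusted p of 0.00154. This was the smallest limma p among the collagen genes (unadjusted 0.000645). Col6a1 (chr10:76708792-76726168) had 715, 353 and 99.8 normalized counts in the labelled-KO libraries and 975, 1502 and 730.4 in the WT libraries. Its groups did not overlap either, but its lowest library was labelled-KO library 3 and its highest labelled-KO library was 1 (log2 fold change -1.80 ± 0.68 SE with a limma adjusted p of 0.465). Col6a2, its neighbor on chromosome 10, had 569, 298 and 72.0 normalized counts in the labelled-KO libraries and 689, 1074 and 454 in the WT libraries. Within each group the libraries stood in the same order as for Col6a1. Labelled-KO library 1 exceeded WT library 3 for Col6a2, and the log2 fold change was -1.59 ± 0.73 (SE) with a limma adjusted p of 0.525. Without labelled-KO library 3 it was -0.75 for Col6a2 and -1.02 for Col6a1.

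Across libraries the 3 chains showed 2 patterns. Per base of transcript Col6a2 stood at 0.826, 0.876 and 0.749 of Col6a1 in labelled-KO libraries 1 to 3, against 0.733, 0.743 and 0.645 in WT libraries 1 to 3, a narrow range. Col6a1 relative to Col6a3 was 4.61, 1.09 and 0.705 in the labelled-KO libraries, against 1.28, 1.94 and 1.49 in the WT libraries. The highest of these ratios was that of labelled-KO library 1. All 6 genes of the class together held 1652, 1383 and 486 normalized counts in the labelled-KO libraries, against 3343, 4286 and 2272 in the WT libraries, with no overlap. The 3 other chains of this class, Col6a4, Col6a5 and Col6a6, had at most 16.5 normalized counts in any library. Col6a5 and Col6a6 share a stretch of 572 bases at 96.9% identity, so reads may have been split between them. Col6a5 had 8.91, 4.84 and 1.03 normalized counts in the labelled-KO libraries and 0, 2.78 and 0 in the WT libraries, and Col6a6 had 14.5, 16.5 and 2.06 in the labelled-KO libraries and 0.836, 0.925 and 4.55 in the WT libraries.

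Type IV collagen, the network of basement membranes, divided by chain pair. Col4a1 and Col4a2, the chains present in nearly all basement membranes, lie head to head on chromosome 8, with annotated starts that overlap by 22 bases. Col4a1 (chr8:11198423-11312826) had 12293, 8738 and 8273 normalized counts in labelled-KO libraries 1 to 3, against 12663, 19892 and 11580.1 in WT libraries 1 to 3. Labelled-KO library 1 lay within the WT range and the other 2 below it (log2 fold change -0.57 ± 0.25 SE with a limma adjusted p of 0.493). Col4a2 (chr8:11312805-11449287) had 8218, 5786 and 5072 normalized counts in the labelled-KO libraries and 9008, 13994 and 7687 in the WT libraries, with the same order of libraries. Its log2 fold change was -0.67 ± 0.27 (SE) with a limma adjusted p of 0.467. Without WT library 2 it was -0.42 for Col4a2 and -0.33 for Col4a1. The ratio of Col4a2 to Col4a1 per base was 0.686, 0.679 and 0.629 in the labelled-KO libraries, against 0.730, 0.721 and 0.681 in the WT libraries. The 2 chains moved nearly in step, with a highest ratio 1.16 times the lowest.

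Endothelial markers, from cells that rest on such membranes, were also mostly lower in the labelled-KO libraries. Summed over 10 genes they held 11829.8, 11039 and 5418 normalized counts in labelled-KO libraries 1 to 3, against 17638, 21238 and 12764 in WT libraries 1 to 3, and 9 of 10 had a lower log2 mean. The groups did not overlap, with labelled KO lower, for 4 of the 10, against 9.43% of all tested genes. Cdh5, the gene with a higher log2 mean, had 1213, 594 and 369 normalized counts in the labelled-KO libraries and 695, 773 and 478 in the WT libraries. None of the 10 was at 0 in any library. Their part in the values of Col4a1 and Col4a2 was not tested.

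The glomerular chains Col4a3 and Col4a4 were not lower. Together with Col4a5 they form the mature network of the glomerular basement membrane, and mutations in the human genes cause Alport syndrome. Col4a4 (chr1:82448423-82586849) had 4750.4, 3456 and 2708 normalized counts in labelled-KO libraries 1 to 3, against 2478, 2243 and 2572 in WT libraries 1 to 3. It was the one collagen gene with every labelled-KO library above every WT library, at a log2 fold change of 0.55 ± 0.21 (SE) with a limma adjusted p of 0.458. Without labelled-KO library 1 it was 0.33. Col4a3 (chr1:82586921-82722059), whose start lies 72 bases away on the other strand, had 2900.4, 2811 and 2189 normalized counts in the labelled-KO libraries and 2135, 2044 and 2266 in the WT libraries. Labelled-KO library 3 lay within the WT range (log2 fold change 0.28 ± 0.16 SE with a limma adjusted p of 0.583). Col4a5 (chrX:141475385-141689234) had 650.5, 957 and 798 normalized counts in the labelled-KO libraries and 873, 979.8 and 1032 in the WT libraries, with a log2 fold change of -0.28 ± 0.18 (SE) with a limma adjusted p of 0.624. Without labelled-KO library 1 it was -0.13. Col4a6, which joins Col4a5 in the capsule around the glomerulus, had 61.3, 143 and 65.9 normalized counts in the labelled-KO libraries and 129.6, 66.6 and 61.4 in the WT libraries, which overlapped. Its log2 fold change was 0.04 ± 0.44 (SE) with a limma adjusted p of 0.981, and the sign changed when labelled-KO library 2, WT library 2 or WT library 3 was left out.

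The levels of these chains relative to one another were compared next. Per base, Col4a4 relative to Col4a3 was 1.39, 1.04 and 1.05 in labelled-KO libraries 1 to 3, against 0.982, 0.929 and 0.961 in WT libraries 1 to 3. Col4a5 relative to Col4a3 was 0.294, 0.445 and 0.477 in the labelled-KO libraries, against 0.535, 0.627 and 0.596 in the WT libraries. Col4a3 relative to Col4a1 was 0.182, 0.249 and 0.205 in the labelled-KO libraries, against 0.130, 0.0795 and 0.151 in the WT libraries. Of 11 such pairs compared, 4 had groups that did not overlap, these 3 and Col6a2 relative to Col6a1. Col4a3 stands in 3 of the 4, so these are not separate observations, and no share over other pairs of genes was computed. The ratios are given as a description and were not tested. Podocyte markers summed to 11574, 10341 and 9177 normalized counts in the labelled-KO libraries, against 10250.2, 9889 and 8374 in the WT libraries, with 7 of 8 higher in log2 mean and none at 0. Their part in these ratios was not tested. The gene C430014B12Rik overlaps 563 exonic bases of Col4a3 on the other strand, with means of 9.32 normalized counts in labelled KO and 6.43 in WT. Whether counting used strand was not given, so reads in the overlap may belong to either gene.

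**Figure D4:**
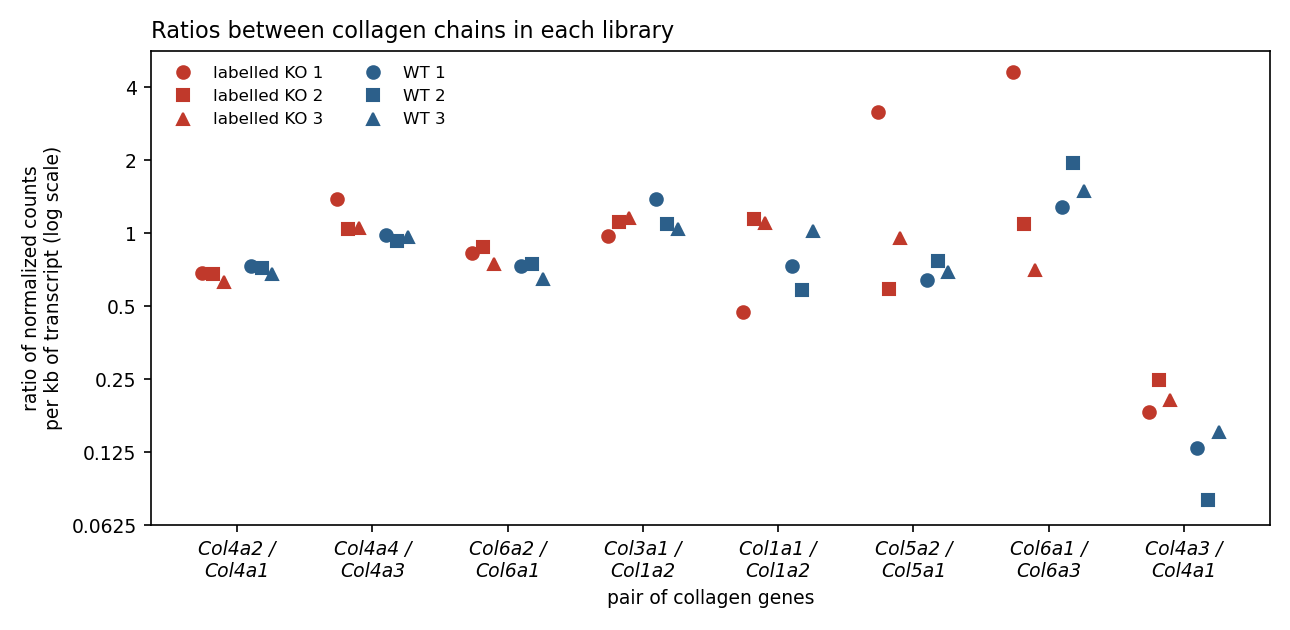
Ratio of the per-base levels of paired collagen chains (vertical axis) in the 6 libraries, labelled KO left of WT. Col4a4 over Col4a3 lies at 1.04 to 1.39 in labelled KO and 0.929 to 0.982 in WT, while Col5a2 over Col5a1 reaches 3.15 in labelled-KO library 1.

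The whole basement membrane class summed to 28873, 21890.3 and 19105 normalized counts in labelled-KO libraries 1 to 3 and 27287, 39219 and 25199 in WT libraries 1 to 3. The groups overlapped, and 3 of its 6 genes had a lower and 3 a higher log2 mean. Divided by transcript length, this class made up 53.0%, 38.1% and 45.9% of all collagen in labelled-KO libraries 1 to 3, against 35.9%, 41.1% and 38.8% in WT libraries 1 to 3. Fibrillar chains made up 16.8%, 28.2% and 14.2% in the labelled-KO libraries, against 36.6%, 31.4% and 27.5% in the WT libraries. Labelled-KO library 2 lay inside the WT range in both shares.

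By group mean Col18a1, a basement membrane collagen whose tail is cut to endostatin, was the most abundant collagen gene per kilobase of principal transcript in labelled KO. In WT it came after Col4a1. It had 7354, 9277 and 9364 normalized counts in labelled-KO libraries 1 to 3, against 7994, 10368 and 10859 in WT libraries 1 to 3, and a log2 fold change of -0.16 ± 0.19 (SE) with a limma adjusted p of 0.786 (95% interval -0.60 to 0.27). Per kilobase the mean level of Col18a1 was 1809 normalized counts in labelled KO and 2033 in WT, while that of Col4a1 was 1477 in labelled KO and 2224 in WT. Next came Col4a2, at 986 in labelled KO and 1586 in WT. In labelled KO Col4a4 followed, at 359.9, ahead of Col3a1 at 338, whereas in WT Col3a1 (1253) and Col1a2 (1061) followed. With the gene length of the deposited files the mean over all 6 libraries put Col4a1 first and Col18a1 after it. Single libraries also departed from the group order per principal transcript. Col4a1 led in labelled-KO library 1, at 24.3% of all collagen per length against 20.1% for Col18a1. In WT library 3 Col18a1 led, at 24.2% against 18.7% for Col4a1. Col15a1, the other member of the class and a collagen of capillary and muscle membranes, had 485, 949.8 and 432 normalized counts in the labelled-KO libraries and 1509.6, 2046 and 939 in the WT libraries. Labelled-KO library 2 just exceeded WT library 3, and the log2 fold change was -1.29 ± 0.37 (SE) with a limma adjusted p of 0.391.

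**Figure D5:**
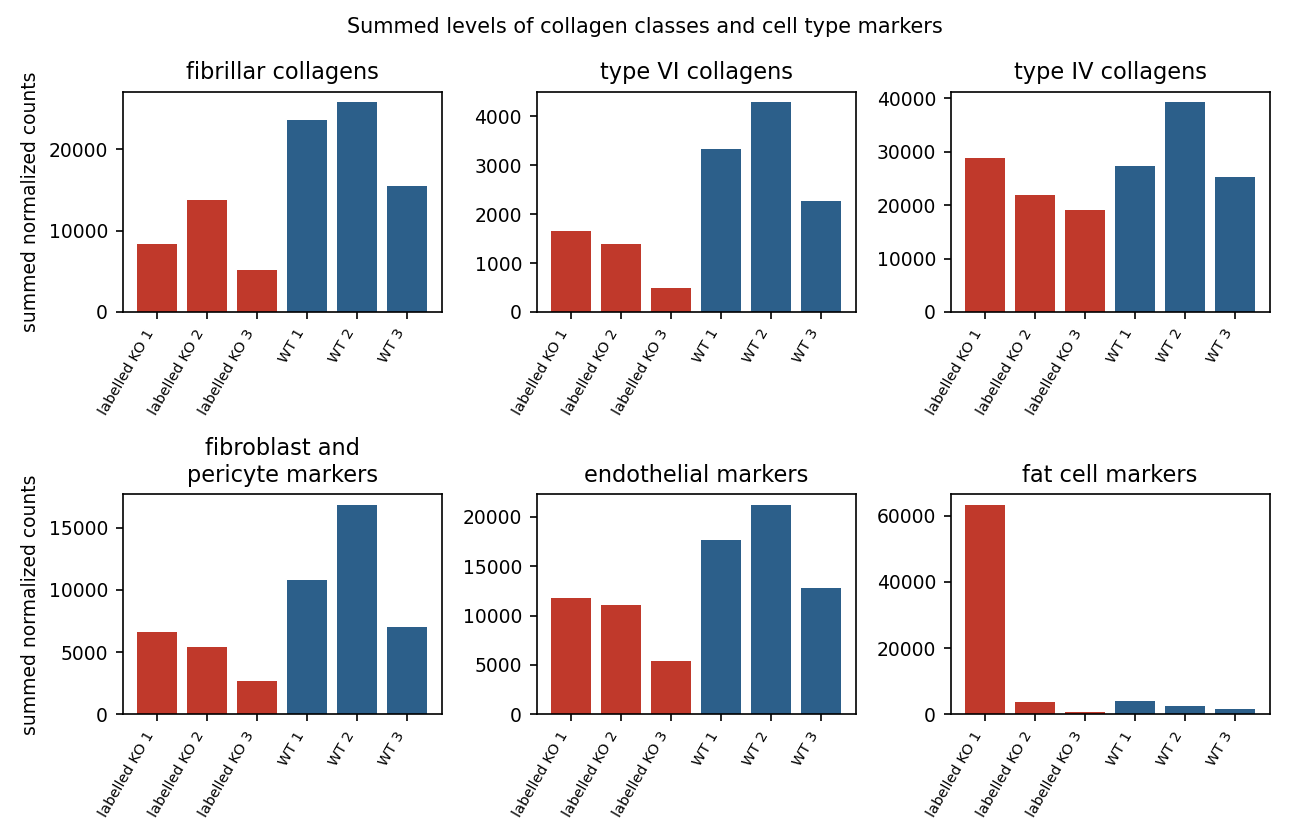
Summed normalized counts (vertical axes) of collagen classes and of cell type marker lists in the 6 libraries, labelled KO left of WT. The fibrillar sums lie at 5189 to 13766 in labelled KO and 15537 to 25773 in WT, and the fibroblast and pericyte sums at 2645 to 6609 in labelled KO and 7032 to 16849 in WT. Acta2 is the largest single gene in the fibroblast and pericyte sum of each WT library.

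Fibril-associated collagens bind the surface of type I fibrils and link them to other matrix. Col12a1 had 368, 290.4 and 268 normalized counts in labelled-KO libraries 1 to 3 and 619, 689 and 329.9 in WT libraries 1 to 3, with labelled-KO library 1 above WT library 3 (log2 fold change -0.77 ± 0.29 SE with a limma adjusted p of 0.452). Col14a1 had 323, 300.1 and 63.8 normalized counts in the labelled-KO libraries and 702, 563 and 207 in the WT libraries (log2 fold change -1.24 ± 0.72 SE with a limma adjusted p of 0.596). Without labelled-KO library 3 that of Col14a1 was -0.48. Both genes were lowest in labelled-KO library 3 and, within WT, in library 3. Col16a1, the most abundant of the class per base, had 271, 769.7 and 669 normalized counts in the labelled-KO libraries and 777, 798 and 581 in the WT libraries. Its log2 fold change was -0.46 ± 0.38 (SE) with a limma adjusted p of 0.707, and without labelled-KO library 1 it was 0.012.

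Col13a1, a transmembrane collagen of cell contacts, had the lowest limma log2 fold change of the family, at -2.16 ± 0.72 (SE) with a limma adjusted p of 0.421. By DESeq2 its log2 fold change was -1.81, and that of Col3a1 was lower, at -1.89. It had 52.3, 8.71 and 8.23 normalized counts in labelled-KO libraries 1 to 3, against 48.5, 124.9 and 68.3 in WT libraries 1 to 3, and labelled-KO library 1 lay above WT library 1. Col8a1, a short chain of the hexagonal networks under endothelium, had 497, 114 and 146 normalized counts in the labelled-KO libraries and 384, 507 and 209 in the WT libraries (log2 fold change -0.76 ± 0.58 SE with a limma adjusted p of 0.681). Its labelled-KO library 1 was near the top of the WT range and the other 2 below it. The log2 fold change of Col8a1 was -1.41 without labelled-KO library 1, -0.35 without labelled-KO library 2 and -0.48 without WT library 2. Col26a1 had 41.2, 111 and 35.0 normalized counts in the labelled-KO libraries and 50.2, 49.96 and 45.5 in the WT libraries. Its log2 fold change was 0.16 ± 0.47 (SE) with a limma adjusted p of 0.924, and it was -0.34 without labelled-KO library 2. The remaining 20 collagen genes, with Col5a3, Col24a1 and Col27a1 among them, had means of 0.361 to 2213 normalized counts. Of these 17 were tested, 9 with a lower and 8 with a higher log2 mean and log2 fold changes of -1.53 to 1.80, and 12 had a mean below 10. Col25a1, a transmembrane chain singled out because its groups did not overlap, had 2.23, 0.968 and 0 normalized counts in the labelled-KO libraries and 2.51, 3.70 and 2.28 in the WT libraries.

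Genes that fold, trim and cross-link collagen were followed as a list of 33, of which 32 were listed and tested. Their median log2 fold change was -0.30, and 24 had a lower log2 mean. By limma and by edgeR 0 passed the adjusted threshold, while 12 were lower (6.14% of all genes) and 1 higher (3.94% of all genes) at an unadjusted p below 0.05. DESeq2 called 4 lower, Adamts2, Pxdn, Fkbp10 and Loxl2, where it called 1.3% of all genes lower. Adamts2, the protease that cuts the amino-terminal propeptide from types I and III, had 178, 167 and 73.1 normalized counts in labelled-KO libraries 1 to 3, against 405, 609.7 and 284 in WT libraries 1 to 3 (log2 fold change -1.66 ± 0.40 SE with a limma adjusted p of 0.377 and a DESeq2 adjusted p of 0.0108). Serpinh1, the chaperone HSP47 of the collagen helix, had 2034, 3869.8 and 3015 normalized counts in the labelled-KO libraries, against 5701, 6179 and 4849 in the WT libraries (log2 fold change -0.95 ± 0.24 SE with a limma adjusted p of 0.377). Fkbp10, a prolyl isomerase that acts with it, had 75.7, 271 and 157 in labelled KO and 447, 649.5 and 375 in WT (log2 fold change -1.68 ± 0.44 SE with a limma adjusted p of 0.383 and a DESeq2 adjusted p of 0.0298). Bmp1, which removes the carboxy-terminal propeptide, had 413, 528 and 497 in labelled KO and 787, 1082 and 702 in WT. Pxdn, a peroxidase that cross-links type IV collagen, had 493, 526 and 579 in labelled KO and 909, 1283 and 755 in WT (log2 fold change -0.85 ± 0.21 SE with a limma adjusted p of 0.377 and a DESeq2 adjusted p of 0.0474). P3h3, which is needed for lysine hydroxylation of collagen, had 136, 260.4 and 168 in labelled KO and 357, 463 and 313 in WT. These 6 genes had the smallest limma p of the list and were taken for it. The groups did not overlap for any of them, which that choice favors and which is no further evidence. In the list as a whole the groups did not overlap for 12 of 32 genes with labelled KO lower and for 2 with labelled KO higher, against 9.43% and 8.27% of all genes.

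Another 2 genes of the list were taken after the values were seen. P4hb, the shared subunit of prolyl 4-hydroxylase, which also serves many other proteins, had 12580.5, 11195 and 12611 normalized counts in labelled-KO libraries 1 to 3 and 12376, 11195 and 13362 in WT libraries 1 to 3 (log2 fold change -0.02 ± 0.16 SE with a limma adjusted p of 0.975). P3h2, a prolyl 3-hydroxylase that modifies type IV collagen, was the one higher gene at an unadjusted p, with 2242, 1319 and 779 normalized counts in the labelled-KO libraries and 576, 538 and 870.3 in the WT libraries. Its groups overlapped and its log2 fold change was 1.03 ± 0.38 (SE) with a limma adjusted p of 0.446.

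Among 8 collagen receptor genes 7 had a lower log2 mean, the median log2 fold change was -0.31, and limma called 0, with 1 gene at an unadjusted p below 0.05, a share near the 10.1% of all genes. Mrc2, the endocytic receptor by which mesenchymal cells take up collagen, had 337, 681 and 227 normalized counts in labelled-KO libraries 1 to 3, against 1181, 1565 and 732 in WT libraries 1 to 3, with no overlap (log2 fold change -1.56 ± 0.43 SE with a limma adjusted p of 0.391 and a DESeq2 adjusted p of 0.0348). It was the single receptor that DESeq2 called, where DESeq2 called 1.3% of all genes lower and 1.95% in either direction. Ddr2, a receptor tyrosine kinase for fibrillar collagen, had 267, 144 and 61.7 normalized counts in the labelled-KO libraries and 369, 457 and 139 in the WT libraries, which overlapped. Ddr1, its epithelial relative, had 5039, 6242 and 8249.6 normalized counts in the labelled-KO libraries and 3985, 4024 and 6309 in the WT libraries, and its log2 fold change was 0.45 ± 0.25 (SE) with a limma adjusted p of 0.567. The integrin chains Itga1, Itgb1 and Itga11 had log2 fold changes of -0.29, -0.34 and -0.56, and their groups overlapped.

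Of 7 collagen-degrading enzymes 6 were tested and 5 had a lower log2 mean (median log2 fold change -0.88), and limma called 0, with 2 genes at an unadjusted p below 0.05 (10.1% of all genes). Ctsk, the cathepsin that cuts the collagen helix, had 44.6, 53.2 and 25.7 normalized counts in labelled-KO libraries 1 to 3, against 131, 230.4 and 75.1 in WT libraries 1 to 3 (log2 fold change -1.71 ± 0.47 SE with a limma adjusted p of 0.383 and a DESeq2 adjusted p of 0.0187). Mmp14, a membrane-bound collagenase, had 529, 457 and 439 normalized counts in the labelled-KO libraries and 766, 1044 and 596 in the WT libraries, again without overlap. DESeq2 called Ctsk and no other gene of this list, where it called 1.3% of all genes lower and 1.95% in either direction. Mmp2 and Mmp13 had log2 fold changes of -1.04 and -1.42 with overlapping groups. Mmp8 and Mmp9, which neutrophils carry, were highest in labelled-KO library 1, at 314 and 395 normalized counts, where neutrophil markers were also highest. Mmp8 stands in the neutrophil list as well. It was 1 of the 5 with a lower log2 mean, at 0 normalized counts in labelled-KO library 2. Its plain mean was higher in labelled KO (110 against 29.3), and its DESeq2 log2 fold change was 1.91.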

How the data were processed

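Kidney RNA was sequenced in 6 libraries, placed in groups by their labelled genotype and title. The deposited values are a normalized signal per gene, in which, as the values show, the authors divided whole read counts by 1 factor per library (0.879 to 1.20). All values were whole multiples of 1 step within 0.001 reads. Per the submitters' processing notes the build is mm10. No source used here gives the aligner, counting program, use of strand or library kit. Symbols and coordinates are those of the files. The collagen genes, gene lists and tests were chosen with earlier results of these data known.

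The main test was limma 3.58.1 (trend, robust) on log2(normalized count + 1) over the 21721 genes with a mean of at least 1, adjusted by Benjamini and Hochberg over all of them at 0.05. On this scale fold changes of low genes are understated. The recovered reads were tested with edgeR 4.0.16 (quasi-likelihood, TMM, 15915 genes) and DESeq2 1.42.0 (Wald test, 16222 genes with an adjusted p) as alternatives, in R 4.3.3. The other alternatives were TMM scaling, pseudocounts of 0.1 and 10, no filter or a minimum mean of 10, a replicate block and leaving out each library. All tests were tried on simulated counts first.

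Named were 19 collagen genes whatever their values, any with an unadjusted limma p below 0.05 or a call, and the most abundant per base of each structural class. From each list the 6 with the smallest limma p were taken. Levels were compared between genes per base of the GENCODE M21 principal transcript. Shared sequence was sought with BLAST 2.17.0 at 95% identity over 100 bases.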

Additional observations from a re-analysis of the deposited data

How the results depend on the processing

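The count of all genes called was 1 by limma and by edgeR, against 316 by DESeq2, 4 with TMM scaling, 5 with no filter on low values, 2 with a pseudocount of 10 and 16 with the replicate block. Leaving out each library in turn gave 1 to 6. Of the collagen genes limma called 0 in the main test and 0 with every library left out in turn, DESeq2 called 4, and the fit with the replicate block called 1, Col1a2 (limma adjusted p = 0.0311). Same-numbered libraries deviated together with correlations of 0.0674, -0.148 and 0.122, so the numbers were not taken to pair the samples. The DESeq2 count of collagen genes ran from 0 without WT library 2, and 1 without WT library 1, to 7 without labelled-KO library 1, and edgeR gave 0 each time. These fits were added after the data were seen. Lower collagen genes numbered 27 of 39 tested, 22 of 30 by edgeR and with a minimum mean of 10, 26 of 42 by DESeq2, 28 of 42 with no filter and 26 or 27 of 39 otherwise. With a library left out they numbered from 24 of 40 to 31 of 41. The median log2 fold change over all tested collagen genes ran from -0.71 to -0.32 over these settings and from -0.68 to -0.40 with a library left out. Of 22 named collagen genes under 14 settings, 298 values kept their direction and side of the threshold, 5 newly passed it and 5 changed sign. The sign changes were Col26a1 at -0.345 without labelled-KO library 2 (range -0.345 to 0.476), Col4a6 at -0.346, -0.098 and -0.155 without labelled-KO library 2, WT library 2 and WT library 3 (range -0.346 to 0.377), and Col16a1 at 0.012 without labelled-KO library 1 (range -0.740 to 0.012). The cause was not tested.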
